A study of Mus musculus with 63 samples.

Results

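The interferon response genes are 34 mouse genes that cells switch on after an interferon signal. They were picked by name, as genes whose symbol is on a set list, and all 34 were found among the 34745 genes of the ovary table and of the pituitary table. All 34 passed the filter on low counts in each tissue, where 17766 genes were tested in ovary and 17001 in pituitary. RNA sequencing had been done on ovaries and pituitaries of female C57BL/6 mice, which were either unstressed controls or exposed to CUMS (chronic unpredictable mild stress), in which mild stressors alternate without a fixed order. The groups cross 2 ages (2 and 6 months) with 2 stress durations (8 and 12 weeks), giving 4 sets per tissue, called 2M-8W and 2M-12W for the younger mice and 6M-8W and 6M-12W for the older mice. Each set holds 4 control and 4 stressed libraries, except that the 6M-12W ovary set has 3 controls. No genetic change or drug is named for any group, and the labels do not say whether a library is 1 animal or a pool, so p-values measure the spread between these samples only.

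Interferons are secreted proteins that warn neighbouring cells of viral or other foreign nucleic acid. Type I interferons bind a receptor whose kinases activate a transcription factor complex, and that complex binds the interferon-stimulated response element in the promoters of its targets. The targets include nucleic acid sensors, antiviral proteins and parts of the pathway itself, so that the whole set is read as a gauge of interferon exposure. In whole tissue, more cells responding and more RNA per responding cell cannot be told apart.

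A core of that response element was searched for in the RefSeq promoter windows of GRCm38.p6, which run from 250 bases before to 50 bases after a gene's start. The letters searched were GAAA, any 2 bases and GAAA again, on either strand, so that overlapping matches can share a box. A window was found for 25 of the 34 genes, and 12 of those 25 held the core, against 3.99% of all 27025 genes with a window. The windows of Ifit1, Ifit3, Isg15, Oas1a, Bst2 and Gbp3 held more than 1 match each and are shown, since the core is repeated in them. Capitals mark the matched letters, and each line reads 5′ to 3′ on the gene's strand.

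Ifit1 (GRCm38.p6, chr19:34640765-34640833, plus strand): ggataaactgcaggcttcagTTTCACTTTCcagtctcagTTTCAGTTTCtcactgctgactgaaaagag

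Ifit3 (GRCm38.p6, chr19:34583353-34583436, plus strand): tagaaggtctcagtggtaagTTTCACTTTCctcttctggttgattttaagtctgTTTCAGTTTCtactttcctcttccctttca

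Isg15 (GRCm38.p6, chr4:156200855-156200916, minus strand): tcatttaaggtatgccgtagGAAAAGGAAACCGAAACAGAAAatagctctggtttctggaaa

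Oas1a (GRCm38.p6, chr5:120907526-120907565, minus strand): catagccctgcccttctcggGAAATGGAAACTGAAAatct

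Bst2 (GRCm38.p6, chr8:71537567-71537622, minus strand): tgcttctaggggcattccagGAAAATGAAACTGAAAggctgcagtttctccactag

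Gbp3 (GRCm38.p6, chr3:142559979-142560034, plus strand): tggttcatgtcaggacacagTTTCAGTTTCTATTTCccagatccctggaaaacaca

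In the Isg15 window 3 matches overlapped in a single run of boxes that began 78 bases before the gene's start. In Ifit1 and Ifit3, neighbours on chromosome 19 whose products bind viral RNA, each window held 2 separate matches. Single matches lay upstream in Gbp2, Cxcl10, Trim30a, Stat2 and Rsad2. The match in Ifih1, and that in another window of Trim30a, lay after the start. Windows of Ifi44, Oasl1, Oasl2, Herc6, Irf7, Xaf1, Ifi35, Lgals3bp, Cmpk2, Irf9, Tap1, Psmb8 and Ifit2 held no match, which says only that these letters are not in that window. Entries for Oas2, Mx1, Usp18, Zbp1, Ifi27l2a, Dhx58, Rtp4, Parp14 and Mx2 were not used here. A match is a description of the sequence and not a measured binding site.

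Total counts ran from 12536371 to 28777668 per ovary library and from 13514270 to 24924584 per pituitary library. Summed markers of granulosa cells, which nourish the oocyte, ranged from 1774 to 6369 CPM (counts scaled to library size) across ovaries against 49.3 to 101 CPM across pituitaries. Pituitary hormone genes summed to at least 162294 CPM in every pituitary. In ovaries they summed to between 1.09 and 1525 CPM, with a median of 67.4 CPM, and the highest value was in a 2M-12W control ovary. No ovary lacked the granulosa, luteal or oocyte markers. The stressed and control comparisons below were fitted to counts with edgeR's quasi-likelihood test over all 8 groups of a tissue, and a gene was called changed at a Benjamini-Hochberg adjusted p under 0.05.

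Resting levels of these genes spanned a wide range in control ovaries. Per length, as FPKM, the median over 15 control ovaries was highest for Bst2 (tetherin, which holds budding virus at the cell surface), at 206 FPKM with a range from 154 to 255. Next came Lgals3bp, a secreted galectin-binding glycoprotein, at 27.99 FPKM, Ifi27l2a at 26.8 FPKM and Gbp2, an interferon-induced GTPase, at 21.8 FPKM. The ranges of those 3 genes overlapped, so their order does not exceed the spread. At the bottom stood Mx1, a dynamin-like antiviral GTPase that is defective in common laboratory strains, at 0.339 FPKM, and Oasl1, a relative of the 2′-5′ oligoadenylate synthetases, at 0.538 FPKM. In 16 control pituitaries Lgals3bp, at 19.9 FPKM, and Bst2, at 18.9 FPKM, led with overlapping ranges, and Mx1, at 0.275 FPKM, was again lowest.

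The mean log2 CPM of the 34 genes in a library gives a score that is used here as a description only. Among control ovaries it lay between 3.49 and 4.50. Only 3 ovaries of 31 scored above 5, all of them stressed: stressed ovary 4 of the 6M-8W set at 6.40, stressed ovary 1 of the 2M-12W set at 5.84 and stressed ovary 3 of the 6M-8W set at 5.29. Stressed ovary 2 of the 6M-8W set followed at 4.79, and stressed ovary 1 of that set, at 3.87, lay inside the range of its own controls. At the other end, the 4 stressed ovaries of the 2M-8W set scored 3.72, 3.34, 3.33 and 3.52, all below the lowest of their controls at 4.002.

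**Figure D1:**
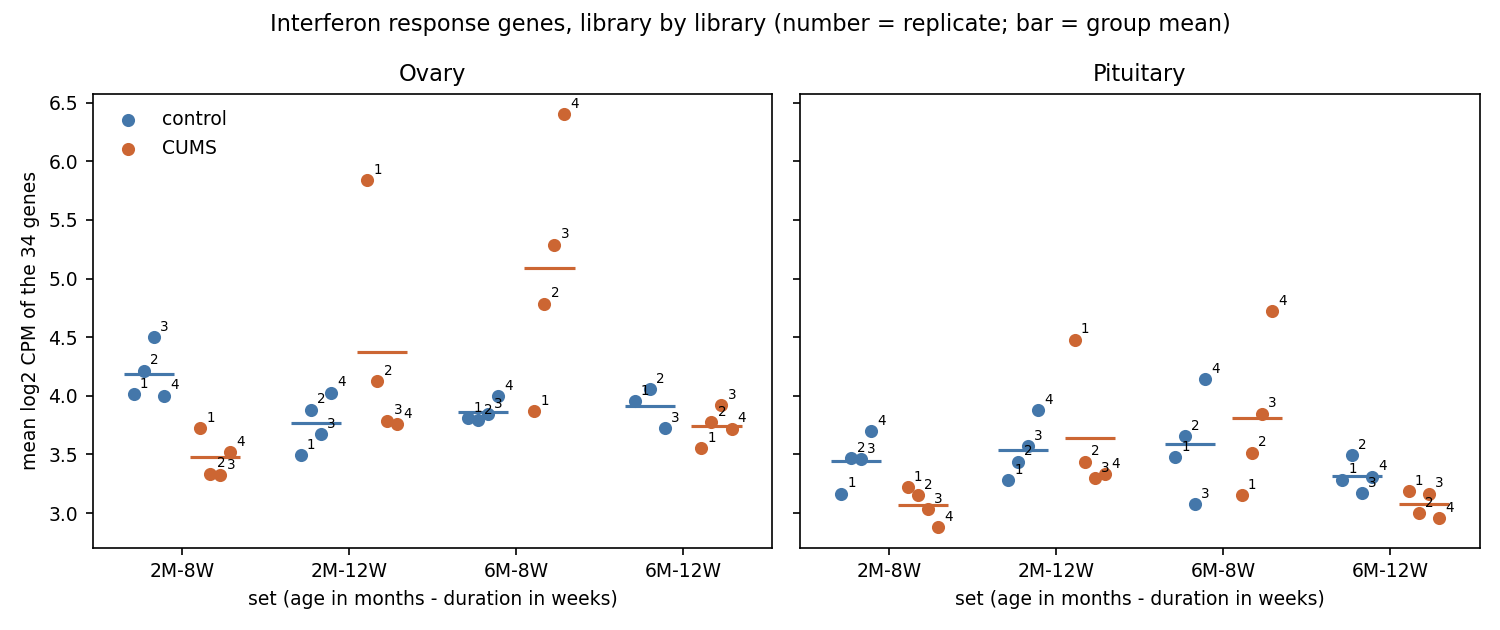
Each point is 1 library, with its replicate number; the y axis is the mean log2 CPM of the 34 interferon response genes, blue points are controls, orange points are CUMS libraries and bars are group means, with ovaries on the left and pituitaries on the right. Stressed ovary 4 of 6M-8W (6.40) and stressed ovary 1 of 2M-12W (5.84) stand far above the other ovaries, and the 2M-8W stressed ovaries lie below all of their controls.

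In 6M-8W ovaries 14 of the 34 interferon response genes rose under stress. The fold was above 0 on the log2 scale for 34 of 34, with a median of 1.43 against -0.01 over all 17766 genes tested. In the same comparison 1.12% of all genes tested were called in either direction and 0.557% were called higher. The 14 comprised 2 of 7 sensors (Oas2 and Oasl2), 4 of 6 signalling and ubiquitin-like genes (Usp18, Isg15, Herc6 and Stat2) and 8 of 16 antiviral effectors (Ifit3, Ifit1, Cmpk2, Ifi44, Mx2, Rtp4, Trim30a and Parp14). None of the 5 genes for guanylate-binding proteins, chemokine and antigen processing passed. At an unadjusted p under 0.05 the count was 32 of 34, beside 2757 of all 17766 genes.

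**Figure D2:**
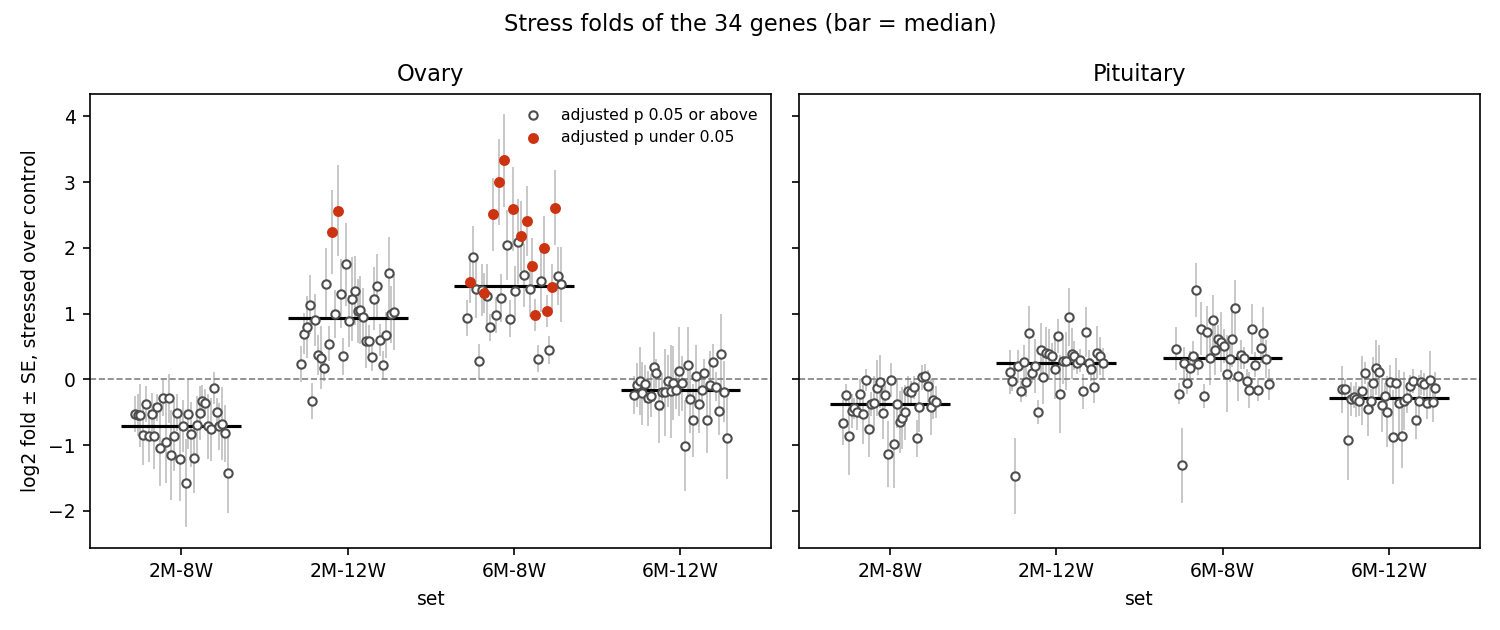
Each circle is 1 of the 34 genes, in alphabetical order within a set; the y axis is the log2 fold of stressed over control with its standard error, filled red circles passed an adjusted p of 0.05 and black bars are medians. From left to right the ovary medians were -0.70, 0.93, 1.43 and -0.16, and the pituitary medians on the right were -0.38, 0.25, 0.32 and -0.28.

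These calls rested on few libraries, and a fit on the 8 ovaries of the set alone called 0 of the 34. Without stressed ovary 4, without stressed ovary 3, or without any of control ovaries 1, 2 or 4 of the 6M-8W set, the count of called genes was 0, and without control ovary 3 it was 8. Leaving out stressed ovary 1, whose score was inside the control range, raised the count to 27. The count over all genes moved as well, from 4 to 336 in these 8 fits, against 199 in the main fit. The median fold was 0.81 without stressed ovary 4 and between 1.40 and 1.68 in the 7 fits that left out another library of the set.

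Among the sensors, Oas2 (2′-5′ oligoadenylate synthetase, which activates RNA decay when it meets double-stranded RNA) measured 7.32, 6.89, 6.30 and 9.15 CPM in the 6M-8W control ovaries. The stressed ovaries of that set gave 8.35, 19.5, 45.0 and 85.1 CPM in the order of their numbers. Stressed ovary 1 thus fell among the controls and the other 3 lay above all of them. The log2 fold was 2.41 ± 0.53 (SE), with an edgeR adjusted p of 0.0362. In 2M-8W the direction was the opposite: controls measured 11.2, 13.9, 16.4 and 12.6 CPM and stressed ovaries 7.36, 4.58, 5.44 and 6.18 CPM. The groups did not overlap there, yet the adjusted p was 0.167.

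Oasl2, an oligoadenylate synthetase-like protein with ubiquitin-like domains, measured 50.8, 46.8, 41.3 and 50.4 CPM in 6M-8W controls and 43.8, 82.4, 142 and 361 CPM in stressed ovaries. Its fold was 1.73 ± 0.42 (SE; edgeR adjusted p = 0.0455), and the groups overlapped through stressed ovary 1. In 2M-8W, stressed ovary 1 measured 68.5 CPM and the other 3 measured 31.7, 40.1 and 42.1 CPM, against 48.7 to 84.1 CPM in controls. The remaining sensors were Ifih1 (MDA5) and Dhx58 (LGP2), which detect viral RNA, Zbp1, which senses Z-form nucleic acid and can start cell death, Oas1a and Oasl1. Their 6M-8W folds ran from 0.98 for Ifih1 to 1.58 for Oas1a and none passed.

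Isg15 encodes a ubiquitin-like protein that is attached to other proteins during the response. Its CPM in 6M-8W control ovaries was 6.71, 6.61, 4.61 and 9.01, and in stressed ovaries 5.04, 24.4, 32.3 and 101. The log2 fold was 2.60 ± 0.64 (SE), with an edgeR adjusted p of 0.0455. In 2M-8W the controls had 6.16, 10.03, 11.3 and 6.99 CPM and the stressed ovaries 4.001, 3.89, 2.16 and 4.69 CPM, with no overlap.

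Herc6, the mouse ligase that attaches ISG15, moved less from a higher base. It measured 28.5, 24.0, 24.0 and 30.4 CPM in 6M-8W controls and 31.6, 42.7, 62.1 and 129 CPM in stressed ovaries, so the groups did not overlap. The fold was 1.31 ± 0.31 (SE; edgeR adjusted p = 0.0416). In 2M-8W it measured 26.3, 25.3, 32.8 and 23.6 CPM in controls and 20.01, 15.7, 19.5 and 19.9 CPM in stressed ovaries.

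Usp18, which removes ISG15 and dampens receptor signalling, rose by 2.61 ± 0.57 (SE) in 6M-8W on the log2 scale (edgeR adjusted p = 0.035). Stat2, a subunit of the transcription factor complex, rose by 1.04 ± 0.25 (SE; edgeR adjusted p = 0.0418). The complex's other members on the list, Irf9, the DNA-binding subunit, and Irf7, which amplifies interferon production, had folds of 0.92 (adjusted p = 0.0959) and 2.04 (adjusted p = 0.0553).

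Ifit3, an antiviral protein that stabilises IFIT1 on foreign RNA, had the largest fold of the 34 genes in 6M-8W. Controls measured 6.10, 5.72, 7.88 and 7.82 CPM, and stressed ovaries 9.81, 30.3, 54.3 and 184 CPM. Every stressed ovary lay above every control, by a narrow margin in stressed ovary 1. The log2 fold was 3.33 ± 0.70 (SE; edgeR adjusted p = 0.0314). In 2M-8W the controls had 10.5, 10.9, 18.4 and 12.0 CPM and the stressed ovaries 6.90, 5.38, 5.44 and 5.41 CPM, so that the groups were again apart, in the other direction.

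Ifi44, an interferon-induced cytoplasmic protein, measured 5.22, 5.21, 6.45 and 6.05 CPM in 6M-8W controls and 6.68, 15.2, 30.4 and 78.6 CPM in stressed ovaries. Its fold was 2.51 ± 0.56 (SE; edgeR adjusted p = 0.0369). In 2M-8W its controls had 7.34, 7.57, 10.5 and 5.18 CPM and its stressed ovaries 4.58, 2.77, 4.24 and 3.19 CPM.

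Of the other antiviral effectors that passed in 6M-8W, Ifit1, which binds foreign RNA ends, rose by 3.002 ± 0.65 (SE; edgeR adjusted p = 0.035). Cmpk2, a mitochondrial nucleotide kinase encoded next to Rsad2, rose by 1.47 ± 0.32 (adjusted p = 0.035). Mx2, a relative of Mx1 that the GENCODE annotation lists as a polymorphic pseudogene, rose by 2.18 ± 0.53 (adjusted p = 0.0455). Rtp4, which can bind viral RNA, rose by 1.99 ± 0.49 (adjusted p = 0.0455). Trim30a, a tripartite motif protein that limits inflammatory signalling, rose by 1.41 ± 0.35 (adjusted p = 0.0455). Parp14, an ADP-ribosyltransferase, rose by 0.98 ± 0.25 (adjusted p = 0.0484). The other 8 effectors did not pass: Ifit2, Rsad2 (viperin), Mx1, Bst2, Ifi35, Ifi27l2a, Xaf1 and Lgals3bp, with folds from 0.79 for Ifi35 to 2.10 for Mx1. Ifit3 has a near-identical neighbour, Ifit3b, whose fold was 3.11 ± 0.72 (adjusted p = 0.0416), and how reads were shared between the pair, or among the Oas1 and Mx relatives, is not given in the sources used here.

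Gbp3, a guanylate-binding GTPase that attacks vacuoles of pathogens, measured 29.9, 28.9, 30.3 and 35.3 CPM in 6M-8W controls and 29.0, 58.7, 67.1 and 165 CPM in stressed ovaries, with a fold of 1.36 and an adjusted p of 0.0794. In 2M-8W its controls had 26.0, 37.5, 46.1 and 35.8 CPM and its stressed ovaries 21.1, 18.01, 22.8 and 17.9 CPM. Cxcl10, a chemokine that draws T cells, departed from the order of the other genes. It was highest in stressed ovary 2, at 36.7 CPM, while stressed ovaries 1, 3 and 4 measured 3.80, 8.09 and 15.4 CPM and the controls 3.59, 3.81, 6.35 and 3.77 CPM. Gbp2 showed that exception too: stressed ovary 4 was the highest of all 31 ovaries for 32 of the 34 genes, and stressed ovary 2 for Cxcl10 and Gbp2. Psmb8, a subunit of the immunoproteasome, and Tap1, a subunit of the peptide transporter for antigen presentation, had 6M-8W folds of 0.31 and 0.45.

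Within 6M-8W the 4 stressed ovaries therefore differed in degree. Against the mean of the 4 controls, the median ratio over the 34 genes was 1.05 in stressed ovary 1, 1.64 in stressed ovary 2, 2.38 in stressed ovary 3 and 5.43 in stressed ovary 4. More than 4 times the control mean was reached by 0, 2, 8 and 24 genes in that order. In stressed ovary 4 the ratios ran from 1.39 for Gbp2 to 26.7 for Ifit3. For 11 of the 34 genes every stressed ovary lay above every control, a count that was not made over all genes tested and so has no background here.

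**Figure D3:**
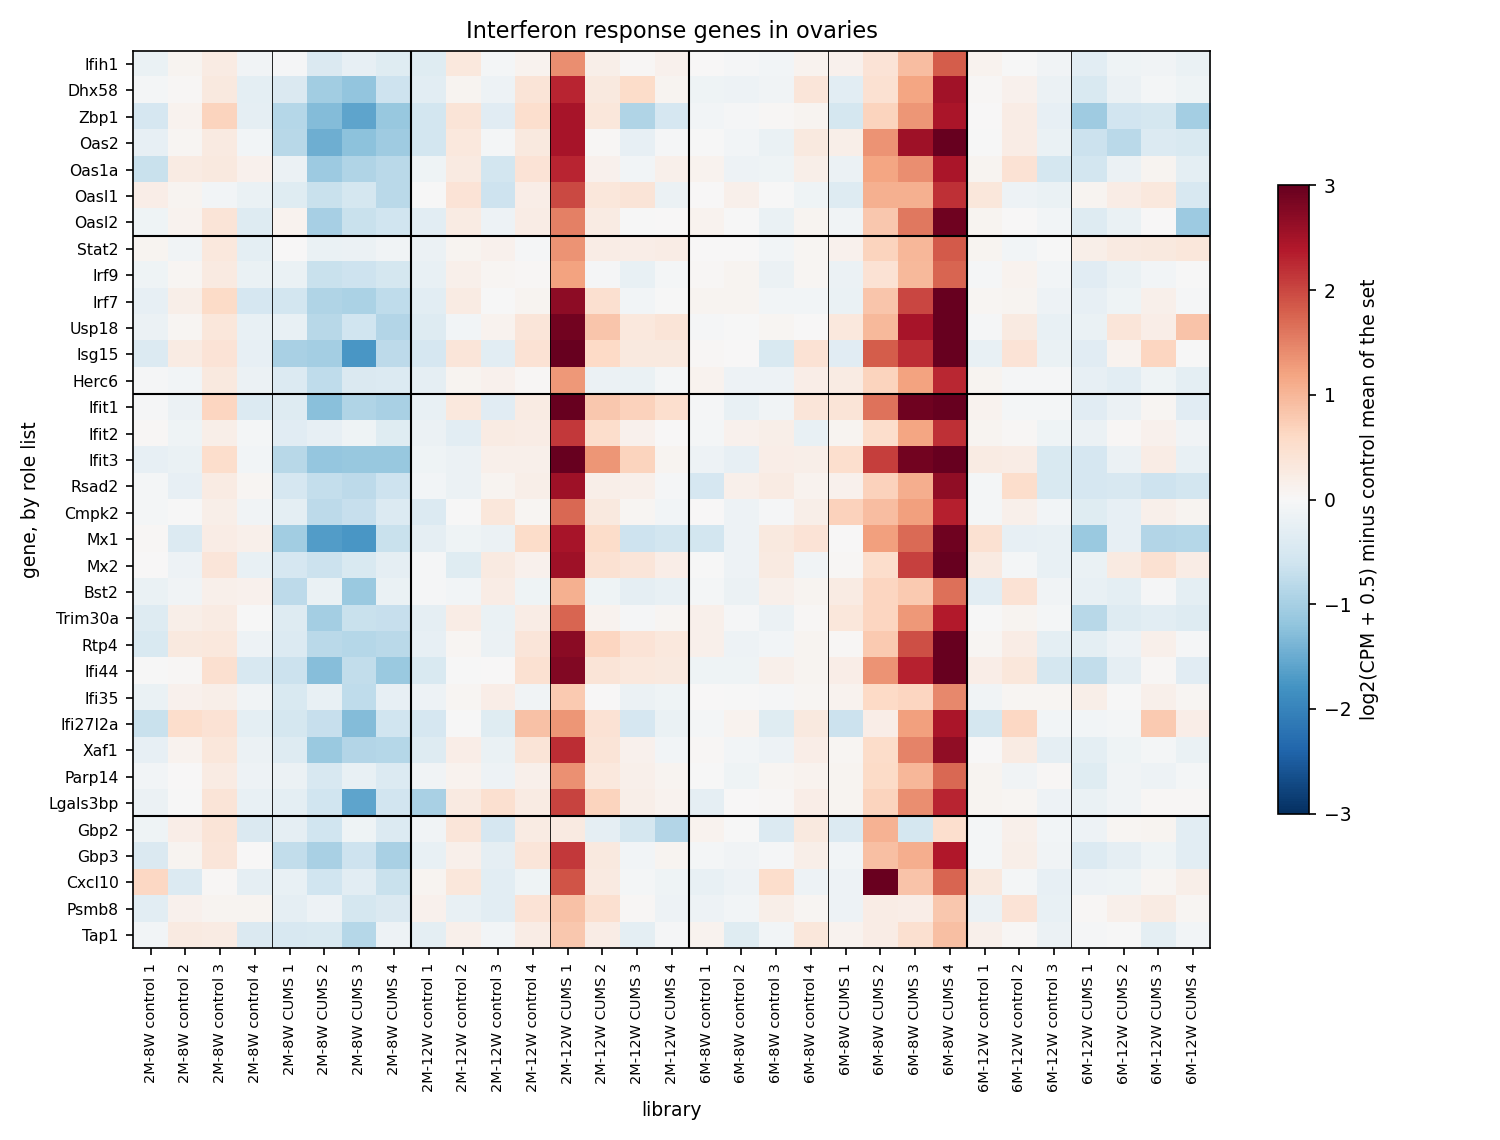
Rows are the 34 genes, parted by black lines into sensors, signalling and ubiquitin-like genes, antiviral effectors, and genes for guanylate-binding proteins, chemokine and antigen processing; columns are the 31 ovary libraries. Colour is log2(CPM + 0.5) minus the control mean of the set, with values beyond ±3 drawn at the ends of the scale: stressed ovary 1 of 2M-12W and stressed ovary 4 of 6M-8W are red nearly throughout, and the 2M-8W stressed ovaries are blue.

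In 2M-8W ovaries 34 of 34 folds were below 0, with a median of -0.70, but 0 of 34 passed, while 6.26% of all genes tested were called. The count at an unadjusted p under 0.05 was 6, beside 4191 of all 17766 genes, and DESeq2 called 0. The smallest p-values belonged to Zbp1, at -1.43 ± 0.60 (SE; edgeR adjusted p = 0.148), and Mx1, at -1.58 ± 0.67 (SE; adjusted p = 0.148). Mx1 averaged 2.85 ± 0.611 CPM (SD, n = 4) in controls and 0.927 ± 0.526 CPM (SD, n = 4) in stressed ovaries. For 20 of the 34 genes every stressed ovary lay below every control. How many of all 17766 genes separate in this way was not counted, so this number has no background beside it. The shift was spread over the libraries, with median ratios to the control mean of 0.736, 0.569, 0.564 and 0.616 in stressed ovaries 1 to 4. No library of the set turned the median: leaving each out in turn gave values from -0.80 to -0.59. The spread that enters this test is estimated over all 8 groups, including those with the strongly raised libraries. A fit on the ovaries of the set alone also called 0. That fit called almost none of all genes tested either, as its count further below shows. Its 0 therefore says little about the 34 genes, and the part of the shared spread was not tested.

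The difference between the stress folds of the 6M-8W and 2M-8W ovaries was tested directly. This comparison was chosen with earlier results of these data known, so its direction is not separate evidence. The difference was above 0 for 34 of 34 genes, with a median of 2.22 on the log2 scale, yet 0 of 34 passed, as did 0% of all 17766 genes. Unadjusted, 33 of 34 had a p under 0.05, as did 2752 of the 17766. The smallest adjusted p-values were those of Oas2, at 3.61 ± 0.75 (SE; edgeR adjusted p = 0.0811), and Ifit3, at 4.49 ± 0.97 (SE; adjusted p = 0.0811). DESeq2 called 30 of the 34 higher, beside 541 of all genes in either direction. The edgeR count was 13 without stressed ovary 4 of 2M-8W, 4 without control ovary 3 of 6M-8W, 26 without stressed ovary 1 of 6M-8W, and 0 in each of the other 13 fits that left out a library. It was also 26 without the highest ovaries of 2M-12W and 6M-8W together, where the median was 1.52. Over all genes, the fits that left out a library called from 0 to 372. The count over all genes without the highest ovaries is not given here.

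In 2M-12W ovaries a single library carried most of the change. The fold was above 0 for 33 of 34 genes, with a median of 0.93, and 2 passed, against 6.74% of all genes called in either direction and 2.58% called higher. Ifit3 rose by 2.57 ± 0.69 (SE; edgeR adjusted p = 0.0238) and Ifit1 by 2.24 ± 0.64 (SE; adjusted p = 0.0323). Ifit3 measured 5.62, 5.41, 6.87 and 6.89 CPM in controls and 114, 16.3, 10.1 and 6.54 CPM in stressed ovaries 1 to 4. Isg15 measured 53.8 CPM in stressed ovary 1 and between 6.69 and 8.26 CPM in the other 3, against 3.61 to 7.42 CPM in controls. Ifi44 likewise measured 38.0 CPM in stressed ovary 1 and 6.35 to 6.81 CPM in the other 3.

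Stressed ovary 1 of 2M-12W had a median ratio to its controls of 4.38, from 1.18 for Gbp2 to 18.5 for Ifit3, while the median ratios of stressed ovaries 2, 3 and 4 were 1.22, 1.01 and 0.992. Without it, 0 genes passed and the median fold was 0.11, and a fit on the 8 ovaries of the set alone called 0. The count was also 0 without control ovary 2 or control ovary 4, and 1 without control ovary 1 or 3. Fits that left out 1 library of the set called from 332 to 1724 of all genes.

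In 6M-12W ovaries 0 of 34 passed, against 11.4% of all genes. Folds were above 0 for 8 genes and below 0 for 26, with a median of -0.16, and 0 had an unadjusted p under 0.05, beside 4874 of all genes. DESeq2 called 0. The smallest p-values were those of Mx1, at -1.01 ± 0.69 (SE; edgeR adjusted p = 0.366), and Zbp1, at -0.89 ± 0.62 (SE; adjusted p = 0.374). Fitted on the 7 ovaries of the set alone, 1 gene was called higher and 3 lower. The count over all genes in that fit is not given here, so these calls have no background. The 12 alternatives run for this set called from 550 to 2914 of all genes. The difference between the 6M-12W and 2M-12W folds was below 0 for 33 of 34 genes, with a median of -1.07. None of the 34 passed there, as did 0% of all genes. In that difference 12 had an unadjusted p under 0.05, beside 2043 of all genes, and DESeq2 called 0, and the smallest p-values were those of Ifit3, at -2.75 ± 0.97 (SE; edgeR adjusted p = 0.283), and Rsad2, at -1.85 ± 0.69 (SE; adjusted p = 0.301).

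Averaged over the 4 ovary sets with equal weight, 5 of 34 passed, all higher, against 20.3% of all genes in either direction and 8.86% higher. They were Stat2 at 0.44 ± 0.12 (SE; edgeR adjusted p = 0.0129), Usp18 at 0.98 ± 0.28 (SE; adjusted p = 0.0148), Ifit3 at 1.14 ± 0.34 (SE; adjusted p = 0.0192), Ifit1 at 1.02 ± 0.32 (SE; adjusted p = 0.0237) and Mx2 at 0.81 ± 0.27 (SE; adjusted p = 0.0339). As a share of the list, 5 of 34 lies between those 2 backgrounds. Without stressed ovary 1 of 2M-12W or stressed ovary 4 of 6M-8W the count was 3, without stressed ovary 1 of 6M-8W it was 13, without stressed ovary 4 of 2M-12W it was 9, and without both of the highest ovaries it was 1. With 1 library left out, from 2748 to 3997 of all genes were called.

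The genes upstream of the 34 were read in the same libraries. Of 19 interferon genes, 0 passed the filter in either tissue. In ovaries 12 of the 19 had any count and 7 had none, which allows each at most 0.104 to 0.239 CPM per library (3 counts of the total, counting error only). The 14 alpha and beta interferon genes together had 11 counts over 31 ovaries. The most counts fell on Ifnl3, a lambda interferon, with 47 in all, of which 9 and 16 were in stressed ovaries 1 and 2 of 6M-8W, 3 in stressed ovary 1 of 2M-12W, and 0 in stressed ovaries 3 and 4 of 6M-8W. Control ovaries 3 and 4 of 2M-12W had 5 Ifnl3 counts each. Ifne, an interferon of the reproductive tract, had 33 counts in all, with the most, 12, in control ovary 4 of 2M-12W, 5 each in stressed ovaries 1 and 2 of 6M-8W and 0 in the 3 highest-scoring ovaries. Pituitaries had 14 interferon counts, 9 of them for Ifng, in 32 libraries.

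In 6M-8W ovaries 0 of 9 receptor and kinase genes and 0 of 8 other signal factors passed. Ifngr2, a chain of the interferon gamma receptor, had a fold of -0.27 ± 0.08 (SE; edgeR adjusted p = 0.0991). Among 15 other sensors and adaptors 1 rose, Ddx58 (RIG-I, an RNA sensor), by 1.20 ± 0.30 (SE; edgeR adjusted p = 0.0455). Of 46 other type I induced genes 3 rose and 40 had a fold above 0, with a median of 0.67; Samd9l, an antiviral and growth-restraining protein, rose by 0.97 ± 0.19 (SE; adjusted p = 0.0209). Of 35 genes induced by interferon gamma or serving antigen presentation 1 rose, Iigp1, an immunity-related GTPase, by 1.68 ± 0.42 (SE; adjusted p = 0.0455).

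In 2M-8W ovaries 3 genes of those 5 pathway lists passed, all lower, where 6.26% of all genes were called. Irf3, which drives interferon production, fell by 0.23 ± 0.06 (SE; edgeR adjusted p = 0.0258), and 2 genes of the gamma list fell, Psme2, a proteasome activator subunit, by 0.46 ± 0.11 (SE; adjusted p = 0.0217) and Psmb10, an immunoproteasome subunit, by 0.52 ± 0.16 (SE; adjusted p = 0.0483). Folds were below 0 for 34 of the 35 genes of the gamma list, with a median of -0.39, and for 39 of the 46 other type I induced genes, with a median of -0.33. In the difference between the 2 sets 0 genes of any pathway list passed. The smallest p-values there included Ifi203, an interferon-induced DNA-binding protein, at 1.34 ± 0.30 (SE; edgeR adjusted p = 0.0811), and Igtp, an immunity-related GTPase, at 1.86 ± 0.43 (SE; adjusted p = 0.0811).

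Markers of immune cells were summed beside these results. In the 4 ovaries with the highest scores (stressed ovary 1 of 2M-12W and stressed ovaries 2 to 4 of 6M-8W) the 12 macrophage markers summed to between 733 and 820 CPM, within the 405 to 1456 CPM of all ovaries and below all 4 controls of 6M-8W, which had 825 to 1143 CPM. Their 10 T cell markers summed to 21.5 to 25.5 CPM, within the 12.0 to 30.6 CPM of all ovaries, though all 4 stressed ovaries of 6M-8W (21.1 to 22.9 CPM) lay above their controls (17.8 to 18.9 CPM). The 2M-12W controls had 568 to 791 CPM of macrophage markers and 16.1 to 23.9 CPM of T cell markers. Stressed ovary 1 of 2M-12W lay within the first range and, at 25.5 CPM, above the second. Plasmacytoid dendritic cell markers, from the cells known for making type I interferon, summed to 10.3 to 15.7 CPM in the 6M-8W stressed ovaries and 9.08 to 16.01 CPM in their controls. In 2M-8W the luteal markers were lower in stressed ovaries (8796 to 14305 CPM) than in controls (15395 to 19859 CPM), beside the folds below 0 of the 34 genes. Endothelium markers were lower there too, at 343 to 392 CPM in stressed ovaries against 411 to 513 CPM in controls. The part of cell composition in these results was not tested.

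Of the 34 genes 0 passed in each of the 4 pituitary sets, against 0.424% of all genes called in 2M-8W and 0.582% in the 2M-12W set. For the older mice the share of all genes called was 4.70% at 8 weeks and 0.276% at 12 weeks. The median folds were -0.38, 0.25, 0.32 and -0.28 in the same order, which is the sign of the ovary median in each set. At an unadjusted p under 0.05 the counts were 3, 4, 6 and 1, beside 1315, 1726, 2953 and 1829 of all 17001 genes. DESeq2 called 0, 0, 2 and 0. In 2M-8W the smallest p-values were those of Rsad2, at -0.89 ± 0.28 (SE; edgeR adjusted p = 0.253), and Gbp2, at -0.44 ± 0.16 (SE; adjusted p = 0.414). Ifih1, at -0.49 ± 0.18 (SE; adjusted p = 0.278), and Lgals3bp, at 0.67 ± 0.26 (SE; adjusted p = 0.306), led in 2M-12W.

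In the 6M-8W pituitaries Ifi27l2a had a fold of 1.36 ± 0.42 (SE; edgeR adjusted p = 0.0547) and Irf9 of 0.62 ± 0.20 (SE; adjusted p = 0.0798). The count was 3 without stressed pituitary 1 and 1 without stressed pituitary 2. Leaving out 1 library of that set gave from 436 to 991 calls over all genes. In 6M-12W the smallest p-values were those of Rsad2, at -0.62 ± 0.28 (SE; adjusted p = 0.415), and Ifih1, at -0.33 ± 0.18 (SE; adjusted p = 0.527). The fold of Ifih1 was 0.080 without control pituitaries 3 and 4 of that set, of which pituitary 3 stood apart with 10.02% mitochondrial counts against 2.74% to 6.44% in the other 31.

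The stress folds of the 6M-8W and 2M-8W pituitaries differed in 0 of the 34 genes by test, against 0.182% of all genes. There the difference was above 0 for 32, with a median of 0.65, and the smallest p-values were those of Ifi27l2a, at 1.89 ± 0.61 (SE; edgeR adjusted p = 0.23), and Irf9, at 0.85 ± 0.29 (SE; adjusted p = 0.262). At an unadjusted p under 0.05 the count was 8, beside 1600 of all genes, and DESeq2 called 0. Between 6M-12W and 2M-12W 0 passed as well, against 0.0235% of all genes, with 2 at an unadjusted p under 0.05, beside 1105 of all genes, and 0 by DESeq2. The median of that difference was -0.43, led by Oas2 at -1.81 ± 0.66 (SE; adjusted p = 0.623) and Irf9 at -0.61 ± 0.29 (SE; adjusted p = 0.749).

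Averaged over the 4 pituitary sets, 3 of 34 genes passed, all lower, against 6.44% of all genes in either direction and 3.37% lower. Ifih1 fell by 0.36 ± 0.09 (SE; edgeR adjusted p = 0.0131), Cxcl10 by 1.14 ± 0.29 (SE; adjusted p = 0.0153) and Rsad2 by 0.47 ± 0.14 (SE; adjusted p = 0.038), while the median of the 34 was -0.01. The call of Rsad2 was lost under 19 of 39 alternatives, with an adjusted p of up to 0.202, and those of Ifih1 and Cxcl10 under 1 each. Gbp2, next by p, had a fold of -0.24 ± 0.08 (SE; adjusted p = 0.0784). Of the whole list, 16 genes had folds above 0 and 18 below. Without control pituitary 4 of 2M-8W, 2M-12W and 6M-8W together the count was 0, and without stressed pituitary 1 of 2M-12W and stressed pituitary 4 of 6M-8W it was 5. Calls over all genes ran from 709 to 1377 in the 39 alternatives.

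Cxcl10 in control pituitaries was uneven. It measured 1.34, 2.02, 4.64 and 7.31 CPM in 2M-8W, 1.32, 3.12, 4.57 and 10.9 CPM in 2M-12W, and 3.49, 4.10, 1.73 and 10.7 CPM in 6M-8W, so that control pituitary 4 was the highest in each. In 6M-12W the controls had 2.12, 2.94, 3.74 and 3.28 CPM. Stressed pituitaries ranged from 0.769 to 3.601 CPM over all 4 sets, below the control maximum of their own set in every case. Without the 3 high controls its mean fold was -0.66 and its adjusted p 0.154.

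Ifih1 measured 34.8 to 41.5 CPM in 2M-8W control pituitaries and 24.8 to 33.0 CPM in stressed ones, without overlap. In the other sets the groups overlapped, with controls at 32.7 to 56.1 CPM in 2M-12W, 39.0 to 51.6 CPM in 6M-8W and 48.5 to 110 CPM in 6M-12W, and stressed pituitaries at 26.9 to 40.5, 28.6 to 45.6 and 53.1 to 60.5 CPM. Rsad2, the antiviral enzyme viperin, measured 19.7 CPM in stressed pituitary 1 and 7.31 to 8.65 CPM in the other 3 of 2M-12W, against 10.4 to 15.3 CPM in controls. In that set 3 stressed pituitaries thus lay below all controls and 1 lay above them. Gbp2 ranged only from 11.8 to 22.6 CPM over all 32 pituitaries. Beside these genes, 3 of 35 genes of the gamma and antigen list passed in the mean over sets, all lower, where 3.37% of all genes were called lower, with H2-Ab1, an MHC class II chain, at -0.31 ± 0.08 (SE; edgeR adjusted p = 0.0151) and Cxcl9, a chemokine of the Cxcl10 family, at -1.38 ± 0.37 (SE; adjusted p = 0.0186). No gene of the other pathway lists passed there.

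**Figure D4:**
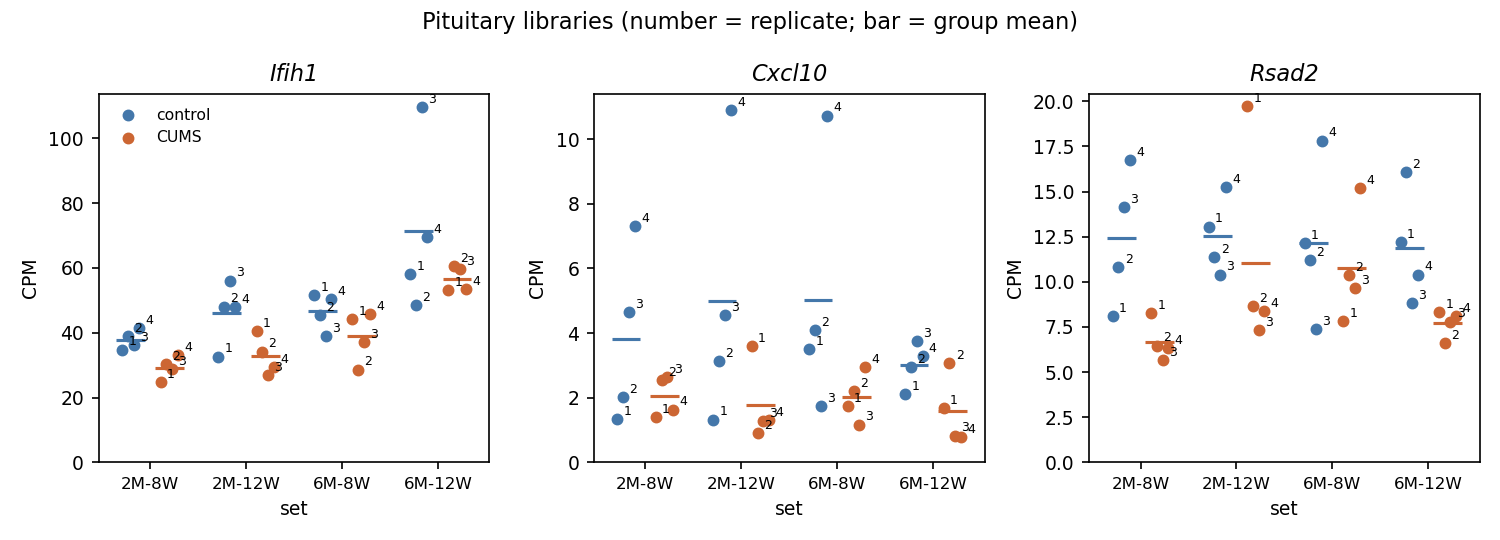
Each point is 1 pituitary library with its replicate number, in blue for controls and orange for CUMS, and bars are group means; the y axes are CPM and start at 0. Control pituitary 4 has the most Cxcl10 in 3 sets (7.31, 10.9 and 10.7 CPM), and stressed pituitary 1 of 2M-12W has the most Rsad2 of all (19.7 CPM).

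The high libraries carried the same numbers in both tissues. Stressed pituitary 4 of 6M-8W had the highest score of all 32 pituitaries, at 4.72, and stressed pituitary 1 of 2M-12W the next, at 4.48, as their ovary counterparts had among ovaries. Relative to the control mean of the set, the scores of stressed ovaries 1 to 4 of 6M-8W were 0.01, 0.93, 1.43 and 2.54, and those of stressed pituitaries 1 to 4 were -0.44, -0.07, 0.26 and 1.14, in the same order. In stressed pituitary 4 of 6M-8W the median ratio over the 34 genes was 2.18, up to 5.25 for Ifi27l2a, and in stressed pituitary 1 of 2M-12W it was 1.94, up to 4.15 for Oas2. Cxcl10, at 0.586 and 0.723 of its control mean, and Ifih1, at 0.979 and 0.876, were the 2 genes below 1 in these libraries. The labels do not say that same-numbered ovaries and pituitaries came from the same mouse.

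**Figure D5:**
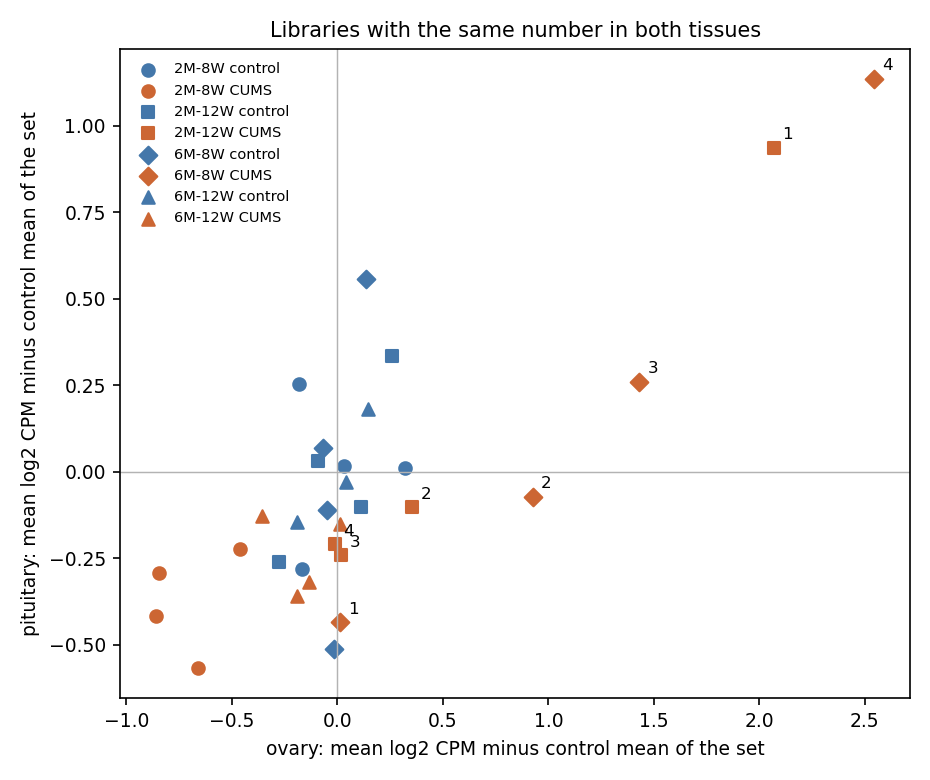
Each point pairs an ovary and a pituitary that carry the same set, treatment and number; the axes are the mean log2 CPM of the 34 genes minus the control mean of the set, with ovary on x and pituitary on y, and numbers mark the stressed libraries of 2M-12W and 6M-8W. Stressed number 4 of 6M-8W (2.54 and 1.14) and stressed number 1 of 2M-12W (2.07 and 0.94) lie at the upper right, apart from the other points.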

How the data were processed

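Gene-level counts and FPKM values for 31 ovary and 32 pituitary libraries were deposited by the authors in 1 table per tissue. Per the labels' protocols, total RNA was made into libraries with the NEBNext Ultra II kit; the sources used here do not give the aligner, counter, strand setting or build. The loci of 29 of the 34 genes equalled GENCODE M21 (GRCm38). The deposited FPKM values equalled counts per length within 1% and served for levels only. Deposited counts were tested with edgeR 4.0.16 (quasi-likelihood, TMM, filterByExpr, all 8 groups of a tissue in 1 fit), with Benjamini-Hochberg adjustment over all genes tested. CPM used TMM-scaled totals, and scores a prior count of 2. Scripts were tested on simulated data. Alternatives were DESeq2 1.42.0, RLE size factors, no filter, own groups only, a replicate block and each library left out; fits without pairs or trios of libraries were chosen after seeing the data.

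Members, comparisons, role lists, pathway lists and marker lists were chosen with earlier results of these data known. By rule, values by library were given for the 2 genes of each role with the smallest p in the ovary 6M-8W minus 2M-8W difference, and for the 4 with the smallest p in the pituitary mean; folds were given for each gene past the threshold, or else for the 2 with the smallest p, and for at most 2 genes per pathway list. Other genes were named after their values were seen, and 1 pathway gene that the rule names is not reported here. Within groups, no 2 libraries held identical values. The series' text pairs each age with 1 duration, whereas the sample titles give all 4 combinations, which were followed.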

Additional observations from a re-analysis of the deposited data

Results flagged for a closer look

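Dixon's test for a single distant value was applied to the score and to the genes described by library, in 103 groups of 4 libraries, and marked 16; chance alone marks about 1 group in 20. Stressed ovary 1 of 2M-12W was marked for 8 genes: Oas2 (50.1 CPM, others 7.20 to 8.82), Oasl2 (132 CPM, others 46.0 to 55.3), Isg15 (53.8 CPM, others 6.69 to 8.26), Herc6 (72.5 CPM, others 25.2 to 27.9), Ifit3 (114 CPM, others 6.54 to 16.3), Ifi44 (38.0 CPM, others 6.35 to 6.81), Gbp3 (112 CPM, others 24.2 to 31.4) and Cxcl10 (16.6 CPM, others 3.75 to 5.09). The pituitary with the same number and set was marked for its score (4.48, others 3.30 to 3.44) and for Cxcl10 (3.601 CPM, others 0.900 to 1.32), Rsad2 (19.7 CPM, others 7.31 to 8.65) and Gbp2 (19.6 CPM, others 13.8 to 14.6).

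The remaining 4 marks were each a single gene. Stressed pituitary 4 of 6M-8W had 19.4 CPM of Gbp2 against 14.6 to 15.1 CPM in the others. Control ovary 3 of 6M-8W had 6.35 CPM of Cxcl10 against 3.59 to 3.81 CPM. In 2M-8W, stressed ovary 2 had 15.7 CPM of Herc6 against 19.5 to 20.01 CPM, and stressed ovary 1 had 6.90 CPM of Ifit3 against 5.38 to 5.44 CPM. The 4 stressed ovaries of 6M-8W were not marked for any of these genes.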

How the results depend on the processing

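In ovaries the number of the 34 genes called depended on the fit. For 6M-8W it was 14, and 29 with DESeq2, 8 with no filter on low counts, 0 with own groups only and 0 to 27 with each library left out; with choices added after seeing the data it was 8 without the highest ovaries of 2M-12W and 6M-8W and 0 without stressed ovaries 3 and 4. For 2M-12W it was 2, and 6 with DESeq2, 0 with own groups only, 0 without the highest ovaries and 0 to 2 with each library left out. For the mean over sets it was 5, and 8 with DESeq2, 3 to 13 with each library left out, 1 without the highest ovaries, 1 without stressed ovaries 3 and 4 of 6M-8W and 3 without stressed ovaries 1 and 3 of 2M-8W. For the 6M-8W minus 2M-8W difference it was 0, and 30 with DESeq2, 0 to 26 with each library left out and 26 without the highest ovaries. For 6M-12W it was 0, and 4 with own groups only. RLE size factors gave 16 for 6M-8W. The cause of these differences was not tested.

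In pituitaries the 6M-8W count was 0, and 2 with DESeq2 and 0 to 3 with each library left out. The count for the mean over sets was 3, and 2 to 4 with each library left out, 5 without the 2 highest stressed pituitaries and 0 without control pituitary 4 of 3 sets. The 6M-12W fold of Ifih1 reversed to 0.080 without control pituitaries 3 and 4. On the log2(FPKM + 1) scale the stressed minus control score was -0.46 in 2M-8W ovaries and -0.11 in 6M-12W pituitaries.

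Replicate numbers did not pair the samples: same-numbered deviations correlated between -0.24 and 0.20 in ovaries, with 3 of 15 correlations over 0.1, and between -0.07 and 0.27 in pituitaries, with 5 of 16 over 0.1. With a replicate block the ovary counts were 0 for 2M-12W, 0 for 6M-8W and 0 for the mean over sets, and the pituitary mean kept 3. The 0 calls in 2M-8W ovaries held under every alternative run.

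Over all genes, 199 were called in 6M-8W ovaries, and 598 with DESeq2, 84 with no filter, 28 with the replicate block and 99 with own groups only. In 2M-8W ovaries 1113 were called, and 1699 with DESeq2, 125 with the block and 2 with own groups only. In the difference between those sets 0 were called, and 541 with DESeq2 and 1 with own groups only, and in the 12-week difference 0, and 86 with DESeq2 and 2 with own groups only.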

Other observations

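In 6M-12W ovaries 5 of 35 genes of the gamma and antigen list were lower under stress by edgeR's quasi-likelihood test, where 11.4% of all genes were called in either direction and 1112 of 17766 were lower. They were named after their values were seen: Ciita, the class II master regulator, at -1.24 ± 0.20 (SE; adjusted p = 0.0011), H2-Eb1 at -0.98 ± 0.21 (SE; adjusted p = 0.0054), H2-Ab1 at -0.90 ± 0.20 (SE; adjusted p = 0.006), H2-Aa at -0.94 ± 0.22 (SE; adjusted p = 0.008) and Cd74 at -0.92 ± 0.22 (SE; adjusted p = 0.0088). Macrophage markers, from cells that present antigen, summed to 628 to 1046 CPM in those stressed ovaries and 984 to 1456 CPM in their controls; their part in this result was not tested.

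In that set, against the same background, 3 of 9 receptor and kinase genes were also lower, again named after their values were seen: Il10rb at -0.77 ± 0.21 (SE; edgeR adjusted p = 0.0161), Ifnar1 at -0.27 ± 0.08 (SE; adjusted p = 0.0216) and Ifngr1 at -0.27 ± 0.09 (SE; adjusted p = 0.0421).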
